A study of Saccharomyces cerevisiae with 8 samples.

Results

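The genes described here encode the proteins of the small (40S) subunit of the cytoplasmic ribosome of Saccharomyces cerevisiae. They were chosen by name, as the genes RPS0A to RPS31, and number 56 of the 6600 features in the count tables. Of these, 48 form 24 pairs of duplicated genes, named A and B, and 8 are single-copy genes. The RNA of 5 strains was sequenced in a study of histone H3 and H4 residues and chronological lifespan. There were 2 libraries of H4K16Q, in which lysine 16 of histone H4 is replaced by glutamine, 2 of H4H18A, in which histidine 18 of H4 is replaced by alanine, and 2 of WT H4. There was 1 library of H3E50A, in which glutamate 50 of histone H3 is replaced by alanine, and 1 of WT H3. All strains carried the JDY86 background (MATa, his3Δ200, leu2Δ0, LYS2 and MET15 deletions, trp1Δ63, ura3Δ0 and can1::MFA1pr-HIS3), in which both native H3-H4 gene pairs were removed and a single synthetic H3-H4 pair marked with URA3 was inserted, also in the WT strains. Cultures of 10 ml grew in YPD at 30 degrees for 16 h, and replicates were prepared independently. For K16Q and H18A the strain label of each library gives the histone as H3, whereas the design text of the series gives H4, which is used here.

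The small subunit binds the messenger RNA and reads its codons, and it is built from one ribosomal RNA and a set of proteins that are each present once. Ribosomal protein genes are among the most highly expressed genes of growing yeast, and their transcription falls when nutrients run out or growth slows. Most of them were kept as pairs after an ancient duplication of the genome, so the same protein, or nearly the same, is made from genes on different chromosomes.

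Libraries held between 621770 and 10529401 counts, of which 0.180% to 33.9% lay on features that overlap ribosomal RNA genes. Levels are given in CPM (counts scaled to library size by TMM), and 3 counts, which is as many as a count of 0 can hide, came to between 0.217 and 7.06 CPM. Counts of the deleted genes LEU2, TRP1, LYS2 and MET15 were at most 3 in every library, while HHT1 and HHF1, named as deleted, had counts in all 8 libraries. The summed level of 6 a-cell genes was 119 and 30.0 CPM for H4K16Q, 82.4 and 39.0 CPM for H4H18A and 422 and 1028 CPM for WT H4, and 1066 CPM for H3E50A beside 949 CPM for WT H3. A list of 14 genes of the post-diauxic and stationary state summed to 38560 and 8410 CPM for H4K16Q, 38090 and 1798 CPM for H4H18A and 33410 and 1226 CPM for WT H4, and to 102500 CPM for H3E50A beside 2409 CPM for WT H3. Replicates of one strain thus differed widely in this list, and its part in the results on ribosomal protein genes was not tested.

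Libraries did not group by strain in the order of the small-subunit genes. Across the 56 genes, Spearman's rho of the levels was 0.881 between the H4K16Q replicates, 0.861 between the H4H18A replicates and 0.530 between the WT H4 replicates. It was 0.988 between H4K16Q replicate 2 and H4H18A replicate 1, 0.951 between H4H18A replicate 2 and WT H4 replicate 2, and 0.966 between WT H4 replicate 2 and WT H3. These values describe shared gene levels of 56 points and carry no test. WT H4 replicate 1 and H3E50A stood apart from the rest by level.

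The summed level of the 56 genes reached 27030 and 44790 CPM for H4K16Q, 27270 and 19150 CPM for H4H18A and 2695 and 20710 CPM for WT H4, and 5465 CPM for H3E50A beside 20850 CPM for WT H3. As a share of all counts, before any scaling, they took 3.55% and 3.48% for H4K16Q, 1.86% and 1.96% for H4H18A and 0.291% and 2.66% for WT H4, and 0.560% for H3E50A beside 2.05% for WT H3. The feature YGL088W alone took between 0.372% and 22.9% of counts. Without it and the features that overlap ribosomal RNA genes, the shares were 3.61% and 3.62% for H4K16Q and 2.74% and 2.97% for H4H18A. They were 0.383% and 3.43% for WT H4, and 0.594% for H3E50A beside 3.15% for WT H3. WT H4 replicate 1 was the lowest library for 52 of the 56 genes and H3E50A for the other 4. Both lay below each of the 6 remaining libraries in 51 of the 56 genes, the exceptions being RPS21A, RPS22B, RPS25B, RPS30A and RPS30B. H4K16Q replicate 2 was the highest library for 37 genes and H4K16Q replicate 1 for 14. In bulk RNA, fewer growing cells and less RNA per cell cannot be told apart.

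**Figure D1:**
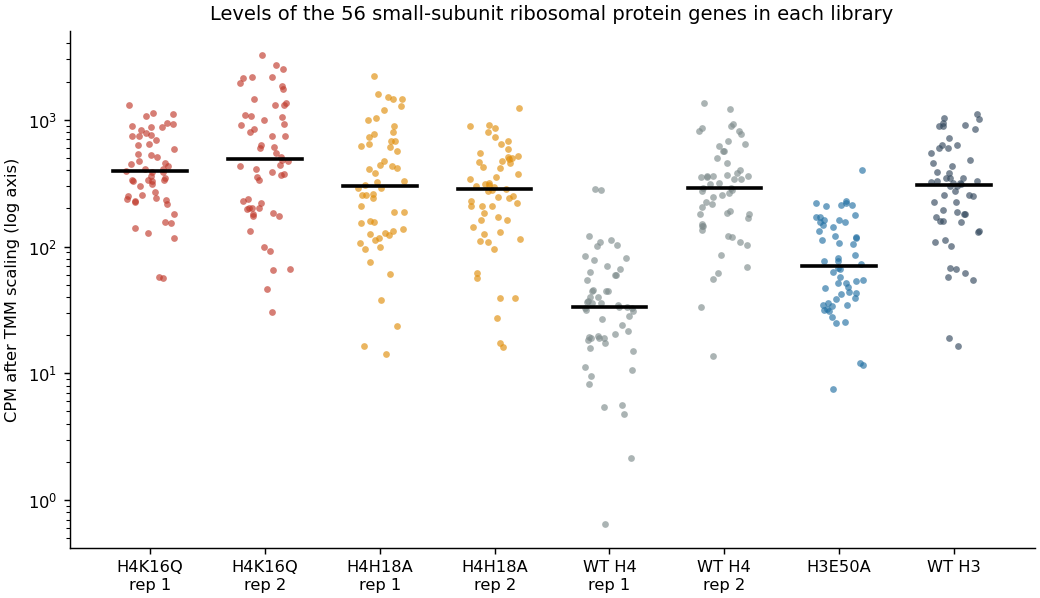
Levels of the 56 small-subunit ribosomal protein genes in each of the 8 libraries, in CPM after TMM scaling on a log axis. Each point is a gene, the bar is the median of the library, and RPS28B in WT H4 replicate 1, which had 0 counts, is drawn at the level of 3 counts. Medians are 391 and 494 CPM for H4K16Q, 298 and 284 CPM for H4H18A and 33.4 and 290.2 CPM for WT H4, and 70.4 CPM for H3E50A beside 307 CPM for WT H3.

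The spread between the WT H4 replicates was larger than the median difference in any comparison of strains. All 56 genes were higher in WT H4 replicate 2 than in WT H4 replicate 1, by a median of 8.83-fold. The smallest difference was 1.32-fold for RPS22B and the largest, among genes with counts in both, 63.9-fold for RPS1B. WT H4 replicate 2 and WT H3, by contrast, differed by a median of 0.995-fold, and 51 of the 56 genes lay within 1.5-fold of each other in these libraries. H4K16Q replicate 2 stood above replicate 1 in 39 genes, with a median of 1.35-fold and a range of 0.301-fold to 3.73-fold. H4H18A replicate 2 stood above replicate 1 in 19 genes, with a median of 0.836-fold and a range of 0.296-fold to 2.81-fold.

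In H4K16Q against WT H4, all 56 genes had a positive log2 fold change, with a median of 1.56 and a range of 0.36 to 3.08, where the median of the 5669 genes tested was -0.10 and 44.4% of them were positive. None of the 56 passed the test (quasi-likelihood test of edgeR, Benjamini-Hochberg adjusted p of 0.997), and 0% of all genes did. At an unadjusted p under 0.05, 5 of the 56 genes were higher and 0 lower, where 1.11% and 2.61% of all genes were. Both H4K16Q libraries lay above both WT H4 libraries in 42 of the 56 genes, where 12.8% of all genes had this order. DESeq2 called 15 genes in all and none of the 56.

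These values rest in part on WT H4 replicate 1. Without it, the median log2 fold change was 0.77 and 51 of the 56 genes were positive. Without WT H4 replicate 2, the median was 4.03, 7 of the 56 genes passed the test, RPS7A, RPS10B, RPS25B, RPS26B and RPS28B among them, and 0.966% of all genes did. Set against both WT H4 replicate 2 and WT H3, which resemble each other, both H4K16Q libraries were higher in 34 of the 56 genes and lower in 1, where 23.7% and 25.6% of all genes were.

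In H4H18A against WT H4, 53 of the 56 genes had a positive log2 fold change, with a median of 0.95 and a range of -0.57 to 1.71, where the median of all genes was -0.09 and 44.4% were positive. With scaling to total counts only, 40 of the 56 were positive, and the median was 0.34 for the 56 genes and -0.56 for all genes. None of the 56 passed the quasi-likelihood test of edgeR (Benjamini-Hochberg adjusted p of 0.999), 0% of all genes did, and DESeq2 called no gene. At an unadjusted p under 0.05 the count was 0 of the 56, where 0.159% of all genes were higher and 2.06% lower. Both H4H18A libraries lay above both WT H4 libraries in 14 of the 56 genes, where 10.3% of all genes did. Without WT H4 replicate 1 the median was 0.14 and 33 of the 56 were positive, and without WT H4 replicate 2 it was 3.15, with 1 of the 56, RPS28B, past the threshold beside 0.216% of all genes. Against both WT H4 replicate 2 and WT H3, both H4H18A libraries were higher in 5 of the 56 genes and lower in 12, where 15% and 19.1% of all genes were.

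Between the H4 mutants, which share the WT H4 libraries only through the common estimate of spread, 55 of the 56 genes were higher in H4K16Q than in H4H18A, by a median of 0.68 on the log2 scale, where 55% of all genes were and the median was 0.07. None of the 56 passed after Benjamini-Hochberg adjustment in edgeR, and neither did any other gene (0%), while DESeq2 called 6 genes and none of the 56. At an unadjusted p under 0.05, 1 of the 56 genes, RPS25B, was higher and 0 were lower, where 0.864% and 0.688% of all genes were. Both H4K16Q libraries lay above both H4H18A libraries in 30 of the 56 genes, where 14.9% of all genes did. Without H4K16Q replicate 2 the median was 0.41 and 42 of the 56 genes were higher.

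In H3E50A, 55 of the 56 genes stood lower than in WT H3 and 1 higher, where 49.7% and 49.3% of all genes did, with a median log2 ratio of -2.0 and a range of -3.54 to 0.41. With 1 library each there was no test. A ratio of at least 2-fold lower was found for 47 of the 56 genes, where 23.2% of 5962 genes were, and for 0 of the 56 in the other direction, where 22.1% of genes were. Set against all 3 WT libraries, of which WT H4 replicate 1 was itself low, the median was -0.89 and 25 of the 56 genes were 2-fold lower, where 18.8% of all genes were.

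**Figure D2:**
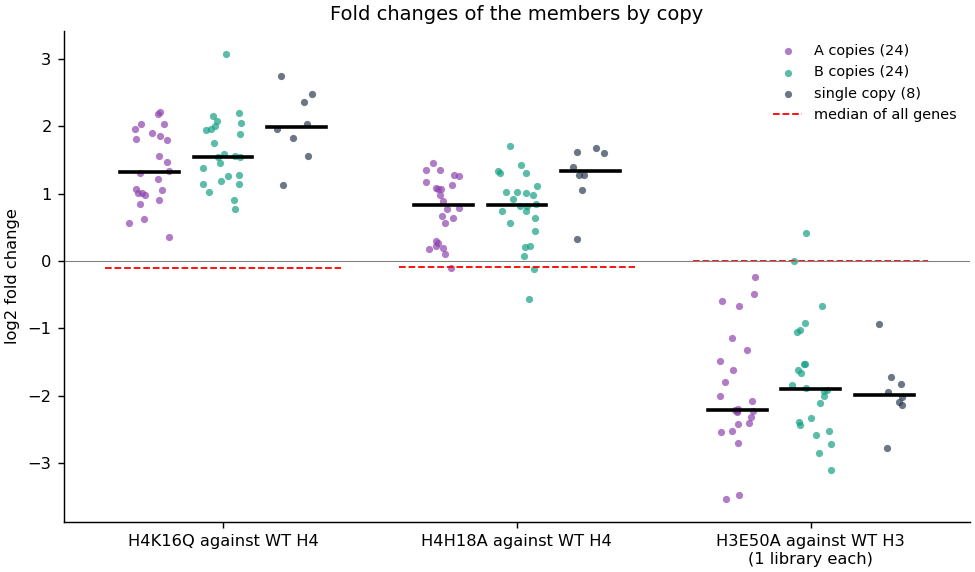
Log2 fold change of the 56 genes in each comparison, for H4K16Q and H4H18A against WT H4 (edgeR, 2 libraries each) and for H3E50A against WT H3 (log2 ratio, 1 library each). Points are genes coloured by copy, black bars are group medians and the dashed red line is the median of all genes. The single-copy genes have medians of 1.995, 1.33 and -1.98, beside 1.32, 0.83 and -2.21 for A copies and 1.55, 0.83 and -1.90 for B copies.

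The 8 single-copy genes include several proteins of the head of the subunit and of the path of the messenger RNA. RPS3 (YNL178W, chrXIV:302680-303402), whose protein lies at the entry of the messenger RNA, had 1065 and 1943 CPM in H4K16Q, 1035 and 319 CPM in H4H18A, and 45.5 and 404 CPM in WT H4. RPS2 (YGL123W, chrVII:277617-278381), whose protein is a neighbour of Rps3 at the same site, had 836 and 1447 CPM in H4K16Q, 779 and 475 CPM in H4H18A, and 54.5 and 355 CPM in WT H4. In both genes the H4K16Q libraries lay above the WT H4 libraries, and in both genes the H4H18A libraries differed from each other, only RPS2 having both of them above WT H4.

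Their log2 fold changes in H4K16Q were 2.74 ± 1.30 (SE) for RPS3 and 2.48 ± 1.15 (SE) for RPS2, the highest of the single-copy genes, and in H4H18A they were 1.60 ± 1.25 (SE) and 1.62 ± 1.12 (SE). RPS3 had 227 CPM in H3E50A and 434 CPM in WT H3, and RPS2 had 147 CPM in H3E50A and 484.5 CPM in WT H3. RPS12, whose protein sits in the beak of the head, had 743 and 1355 CPM in H4K16Q, 885 and 419.8 CPM in H4H18A, and 39.7 and 368 CPM in WT H4, with log2 fold changes of 2.36 ± 1.21 (SE) in H4K16Q and 1.69 ± 1.19 (SE) in H4H18A. RPS12 in WT H4 replicate 2 lay below all 4 libraries of the H4 mutants.

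RPS31 (YLR167W, chrXII:498947-499405) encodes a fusion of ubiquitin with a small-subunit protein and had 1313 and 2136 CPM in H4K16Q, 1454 and 733 CPM in H4H18A, and 62.9 and 775 CPM in WT H4. RPS15, an essential protein of the head near the decoding site, had 869 and 2173 CPM in H4K16Q, 1294 and 587 CPM in H4H18A, and 102 and 679.8 CPM in WT H4. In both of these, WT H4 replicate 1 stood far below every other H4 library, and H4H18A replicate 2 fell below WT H4 replicate 2.

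Further single-copy genes were RPS13, a protein that binds the small-subunit RNA directly, and RPS20, a protein of the head. RPS13 had 638 and 1054 CPM in H4K16Q, 682.5 and 456 CPM in H4H18A, and 19.0 and 455 CPM in WT H4. RPS20 had 689 and 1309 CPM in H4K16Q, 642.5 and 493 CPM in H4H18A, and 283 and 623 CPM in WT H4. RPS20 was the single-copy gene with the smallest log2 fold changes, 1.13 ± 0.97 (SE) in H4K16Q and 0.33 ± 0.96 (SE) in H4H18A, and its level in WT H4 replicate 1 was closer to the other libraries than that of the other single-copy genes. In H3E50A against WT H3 the log2 ratios of the 8 genes lay between -2.77 and -0.93, with RPS3 at the upper end.

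Per length of coding sequence the genes differed by up to 33.1-fold in their mean level over the 8 libraries. By that mean RPS26A, with 3277 CPM per kb, RPS31, with 2053 CPM per kb, and RPS15, with 1989 CPM per kb, were highest. RPS27A, with 99.0 CPM per kb, RPS28B, with 105 CPM per kb, and RPS9A, with 117 CPM per kb, were lowest, and each of these has a partner copy that was higher. The order depends on the weight of libraries with high levels. As a mean share of each library's summed level per kb, which weights libraries equally, RPS26A (7.66%), RPS20 (4.52%), RPS15 (4.22%) and RPS31 (4.17%) led, RPS28B (0.209%) was lowest before RPS27A (0.255%), and RPS26A was the highest gene in 4 of the 8 libraries. When the copies of a pair were added, the spread between proteins was 6.69-fold, with RPS26 the highest at 3937 CPM per kb. The median was 1189 CPM per kb for summed pairs, 1329 CPM per kb for single-copy genes and 626 CPM per kb for separate copies of a pair. Single-copy genes thus stood at about the level of a whole pair.

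The copies of a pair are close in sequence, which bears on how reads are divided between them. Coding identity lay between 84.3% and 99.2%, 9 of the 24 pairs encode identical proteins and 7 differ at 1 residue. In 20 of the 24 pairs every window of 100 bases of coding sequence occurs once in the genome. Among the others, it does in 86.5% of windows for RPS4, 82.7% for RPS24 and 46.0% for RPS6. RPS6A and RPS6B are identical over 311 bases, so the values of these copies are uncertain, since the handling of reads that map to both is not given in the sources used here.

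Stretches of RPS22 and RPS26, the pairs with the widest ranges of copy ratio among those with counts of both copies in every library, and of RPS28, the pair with the largest mean ratio, show how far reads of each copy can be told apart. The sequences are RefSeq coding sequence of build R64, written in coding direction, and capitals mark bases that differ between the copies. The copies differ at 15 of the last 120 coding bases in RPS22, at 17 of the first 120 in RPS28 and at 15 of the last 120 in RPS26.
RPS22A, chrX:74910-75029, minus strand: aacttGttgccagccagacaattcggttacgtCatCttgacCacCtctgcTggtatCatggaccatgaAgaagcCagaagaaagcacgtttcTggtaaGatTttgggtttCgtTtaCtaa
RPS22B, chrXII:857198-857317, plus strand: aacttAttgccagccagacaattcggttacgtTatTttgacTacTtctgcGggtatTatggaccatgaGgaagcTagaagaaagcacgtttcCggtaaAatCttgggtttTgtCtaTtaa
RPS28A, chrXV:648888-649007, minus strand: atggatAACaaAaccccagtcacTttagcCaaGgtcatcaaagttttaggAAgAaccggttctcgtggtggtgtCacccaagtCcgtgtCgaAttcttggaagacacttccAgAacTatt
RPS28B, chrXII:673131-673250, plus strand: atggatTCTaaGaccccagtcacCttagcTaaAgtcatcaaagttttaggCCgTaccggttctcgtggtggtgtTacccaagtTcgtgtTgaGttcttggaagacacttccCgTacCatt
RPS26A, chrVII:148229-148348, minus strand: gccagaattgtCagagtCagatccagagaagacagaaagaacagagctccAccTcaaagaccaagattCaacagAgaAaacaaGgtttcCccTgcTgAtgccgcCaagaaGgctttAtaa
RPS26B, chrV:424192-424311, plus strand: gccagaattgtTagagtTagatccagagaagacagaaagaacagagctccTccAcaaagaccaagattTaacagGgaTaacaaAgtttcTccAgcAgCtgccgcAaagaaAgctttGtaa

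The same copy was the higher one in all 8 libraries in 13 of the 24 pairs. It was the A copy in 9 of these, RPS14, RPS18, RPS24, RPS25, RPS26 and RPS28 among them, and the B copy in 4 (RPS9, RPS19, RPS21 and RPS27), and in 11 pairs the order changed between libraries. The range of log2 A/B over the 8 libraries had a median of 1.90 over the pairs, against 4.13 for the range of the log2 summed level of the same pairs. The ratio thus varied less than the level in 21 of the 24 pairs and more in RPS22 and RPS26. For RPS28 the order is not known, since its range of 5.65 depends on the 0.5 added to a count of 0 in WT H4 replicate 1, and at 3 counts there it is at least 3.06, beside 4.47 for the level. The library farthest from the median ratio was WT H4 replicate 1 in 10 pairs and H3E50A in 7. Without these libraries, an alternative chosen after the data were seen, the median range was 0.95.

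**Figure D3:**
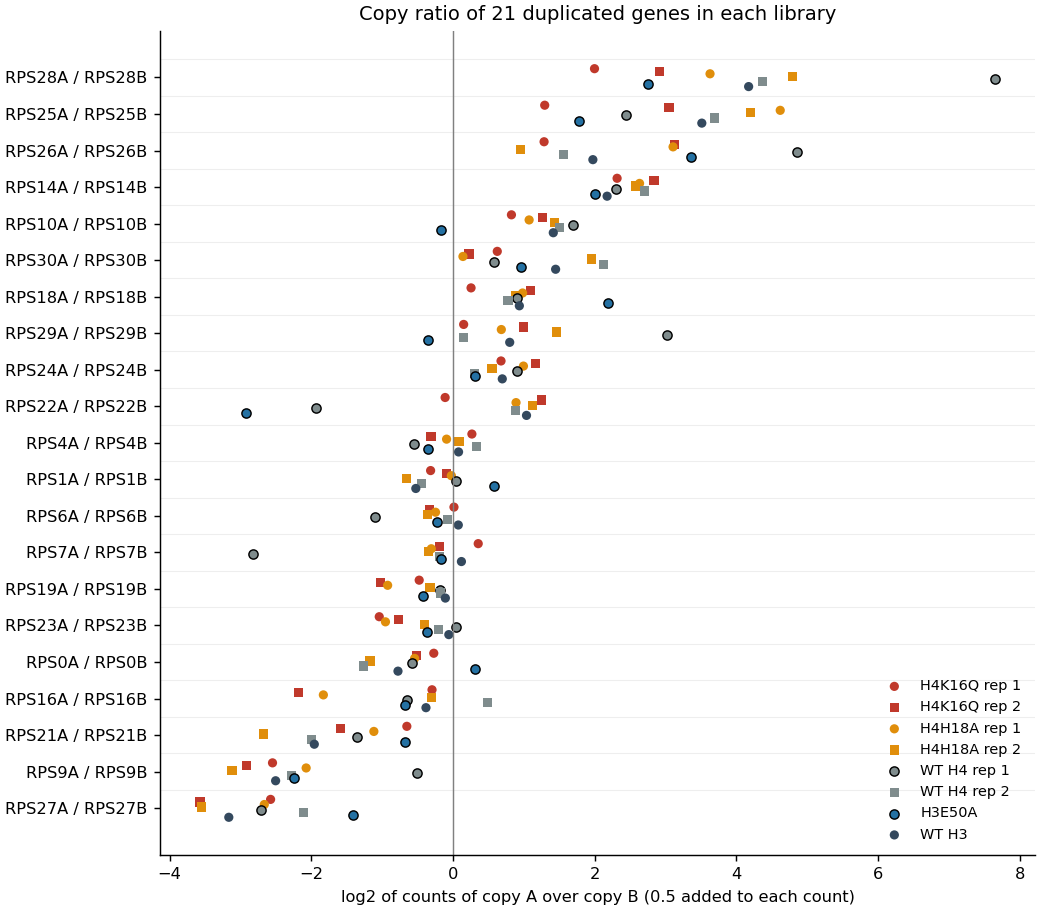
Log2 of the count of copy A over that of copy B for 21 of the 24 duplicated genes, ordered by the mean ratio, in each of the 8 libraries. Black outlines mark WT H4 replicate 1 and H3E50A, and the RPS28 point of WT H4 replicate 1, at 0 counts of RPS28B, depends on the 0.5 added to each count. Among the pairs drawn, the A copy is the higher one in every library in 7 and the B copy in 4.

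As with the gene levels, copy ratios were most alike between libraries of different strains. The median absolute difference of log2 A/B over the 24 pairs was 0.19 between H4K16Q replicate 2 and H4H18A replicate 1, 0.25 between H4H18A replicate 2 and WT H4 replicate 2 and 0.24 between WT H4 replicate 2 and WT H3. Between replicates of one strain it came to 0.54 (H4K16Q), 0.58 (H4H18A) and 0.83 (WT H4). The exact 95% intervals of the share of copy A, which cover counting error only, overlapped in 21 of the 24 pairs between H4K16Q replicate 2 and H4H18A replicate 1, in 1 of the 24 between the H4K16Q replicates and in 10 of the 24 between the WT H4 replicates. Interval width depends on depth, which was 621770 counts in H4H18A replicate 1.

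No pair passed the test for a difference in copy ratio between strains. The ratio was tested by edgeR (quasi-likelihood) on the counts of both copies, with the library as a block, over the 61 gene pairs of the genome whose symbols differ only in a last letter A or B. With Benjamini-Hochberg adjustment, 0 of the 24 pairs and 0% of all 61 were called in H4K16Q against WT H4 (smallest adjusted p 0.551), in H4H18A against WT H4 (0.875) and in H4K16Q against H4H18A (0.993). At an unadjusted p under 0.05 there were 1, 0 and 1 of the 24 pairs, where 6.56%, 1.64% and 1.64% of all pairs were. limma on the log2 ratios called 0 pairs in each comparison. The exact permutation test of 2 libraries against 2 cannot go below 0.33.

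Without WT H4 replicate 2, the ratio test called 5 of the 24 pairs in H4K16Q against WT H4 (RPS7, RPS9, RPS22, RPS26 and RPS28), where 19.7% of all 61 pairs were called, and 4 in H4H18A against WT H4 (RPS7, RPS9, RPS22 and RPS26), where 14.8% were. The small-subunit pairs, at 20.8% and 16.7%, were close to these shares. WT H4 replicate 1, the remaining control there, was the library whose summed level and ratios stood apart. In that setting the lone WT library is assumed to vary like the other strains.

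RPS28 had the largest mean ratio of the pairs, a mean log2 A/B of at least 3.71 with WT H4 replicate 1 taken at 3 counts of RPS28B, beside 3.07 for RPS25, the next pair. Rps28 lies at the exit of the messenger RNA, and the protein is known to lower its own RPS28B messenger. The A copy (YOR167C, chrXV:648804-649007) had 231 and 351 CPM in H4K16Q, 188 and 461 CPM in H4H18A, and 21.6 and 289 CPM in WT H4. The B copy (YLR264W, chrXII:673131-673334) had 57.7 and 46.4 CPM in H4K16Q, 14.1 and 16.1 CPM in H4H18A, and 0 and 13.7 CPM in WT H4. RPS28B was higher in both H4K16Q libraries than in every other library, while RPS28A in H4K16Q overlapped with its level in H4H18A and WT H4.

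In WT H4 replicate 1, RPS28A had 100 counts and RPS28B had 0, so RPS28A stood at least 33.3-fold above the level hidden by a count of 0 (log2 at least 5.06). The share of copy A was 80.0% and 88.3% in the H4K16Q libraries, 93.0% and 96.6% in the H4H18A libraries, and 100% and 95.5% in the WT H4 libraries. The difference of log2 A/B in H4K16Q against WT H4 was -2.66 ± 0.98 (SE), with an unadjusted p of 0.0271 and an adjusted p of 0.551 (quasi-likelihood test of edgeR, Benjamini-Hochberg adjustment). For H4H18A against WT H4 it was -0.73 ± 1.06 (SE), and the share in the single libraries was 87.2% in H3E50A and 94.9% in WT H3. The log2 fold change of RPS28B itself in H4K16Q was 3.08 ± 1.35 (SE), the highest of the 56 genes, beside a control library at 0 counts.

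RPS25 had the smallest p for a difference in ratio between the H4 mutants, and did not pass after adjustment in the main fit. Rps25 is a small protein of the head that is not essential in yeast and takes part in initiation at internal entry sites. RPS25A (YGR027C, chrVII:534132-534458) had 534 and 543 CPM in H4K16Q, 433 and 515 CPM in H4H18A, and 31.0 and 808.5 CPM in WT H4. RPS25B (YLR333C, chrXII:795573-795899) had 217 and 65.4 CPM in H4K16Q, 16.5 and 27.5 CPM in H4H18A, and 5.61 and 62.4 CPM in WT H4. RPS25A was alike in the 4 libraries of the H4 mutants, whereas RPS25B was higher in both H4K16Q libraries than in both H4H18A libraries.

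The share of copy A was 71.1% and 89.3% in the H4K16Q libraries, 96.3% and 94.9% in the H4H18A libraries, and 84.7% and 92.8% in the WT H4 libraries. The difference of log2 A/B in H4K16Q against H4H18A was -2.26 ± 0.75 (SE), with an unadjusted p of 0.0169 and an adjusted p of 0.993 over the 61 pairs (quasi-likelihood test of edgeR, Benjamini-Hochberg adjustment). With WT H4 replicate 1 left out of the common fit, this difference was -2.25 ± 0.55 (SE), and without WT H4 replicate 2 it was -2.25 ± 0.57 (SE). Only the estimate of spread changes there. Whether RPS25 passed the threshold thus depended on the WT H4 libraries that entered this estimate. Counts of RPS25B in H4H18A were low, at 16.5 and 27.5 CPM beside floors of 7.06 and 3.44 CPM for a count of 0. RPS25A was the gene with the smallest log2 fold change in H4K16Q against WT H4, 0.36 ± 1.25 (SE), and RPS25B the one with the lowest in H4H18A, -0.57 ± 1.05 (SE). The share of RPS25A was 77.5% in H3E50A (exact 95% interval 74.2 to 80.7%) and 92.0% in WT H3 (90.2 to 93.6%).

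RPS22 changed its higher copy between libraries. Rps22 is a protein of the body of the subunit, and RPS22B, unlike RPS22A, has an intron, whose RNA carries the small nucleolar RNA SNR44. RPS22A (YJL190C, chrX:74910-75302) had 312 and 430.4 CPM in H4K16Q, 254 and 287 CPM in H4H18A, and 28.5 and 266 CPM in WT H4, and 28.0 CPM in H3E50A and 329.5 CPM in WT H3. RPS22B (YLR367W, chrXII:856442-857317) had 336 and 181 CPM in H4K16Q, 136.5 and 131 CPM in H4H18A, and 109.5 and 144 CPM in WT H4, and 213 CPM in H3E50A and 160.2 CPM in WT H3. RPS22A was low in WT H4 replicate 1 and H3E50A, as most of the 56 genes were. RPS22B lay close to the other libraries in WT H4 replicate 1 and above WT H3 in H3E50A.

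Over the 8 libraries RPS22A spanned 15.4-fold and RPS22B 3.07-fold. The share of copy A was 48.1% and 70.4% in the H4K16Q libraries, 65.1% and 68.7% in the H4H18A libraries, and 20.6% and 64.8% in the WT H4 libraries. In the single libraries it was 11.6% in H3E50A (exact 95% interval 9.73 to 13.7%) and 67.3% in WT H3 (63.8 to 70.6%). H3E50A therefore held most of its RPS22 counts on the B copy, and WT H3 most of them on the A copy. RPS22A had the lowest log2 ratio of the 56 genes in H3E50A against WT H3, -3.54, and RPS22B the highest, 0.41. The difference of log2 A/B was 1.09 ± 0.95 (SE) in H4K16Q and 1.54 ± 0.96 (SE) in H4H18A against WT H4. SNR44 spans chrXII:856710-856920 on the strand of RPS22B and has 0 bases inside its annotated exons, and whether intron reads entered the counts of RPS22B is not given in the sources used here.

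**Figure D4:**
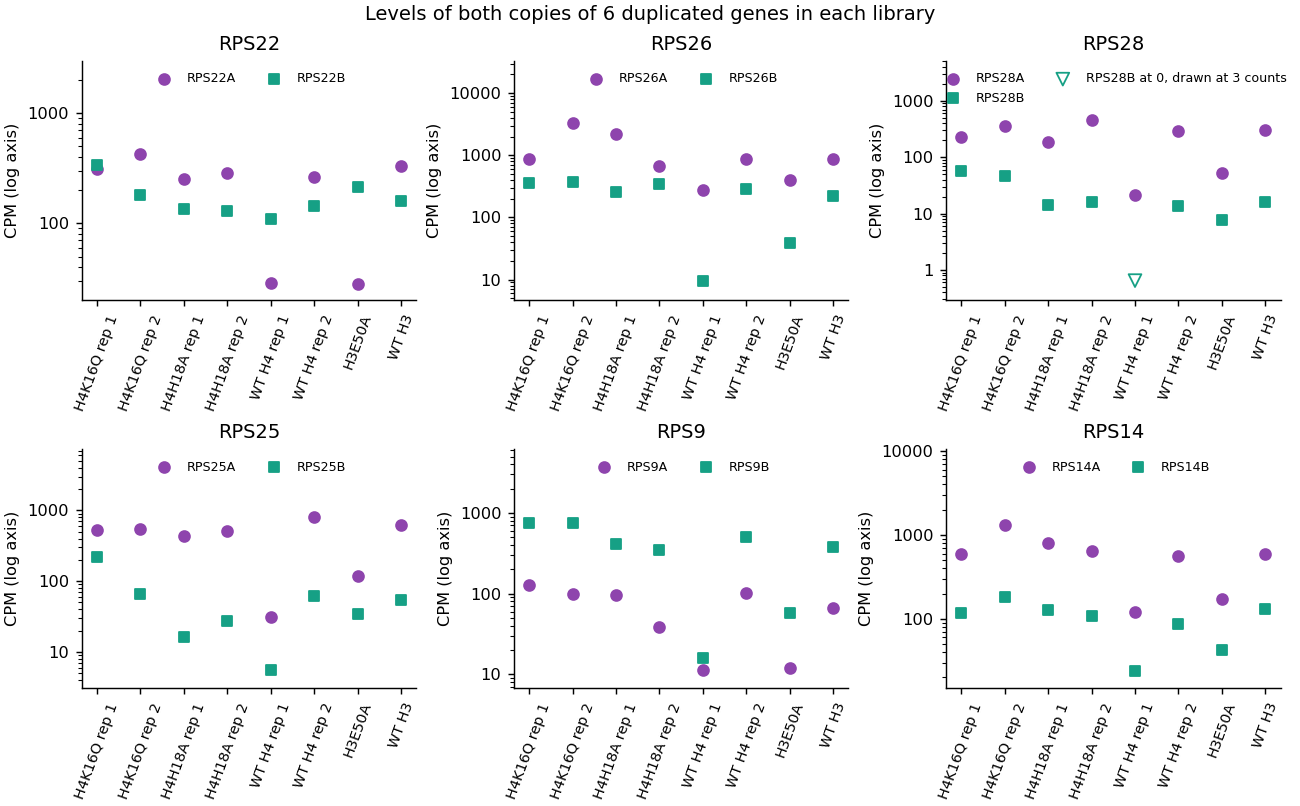
Levels of both copies of RPS22, RPS26, RPS28, RPS25, RPS9 and RPS14 in each library, in CPM on a log axis, with circles for copy A and squares for copy B. RPS22A is at 28.5 CPM in WT H4 replicate 1 and 28.0 CPM in H3E50A, where RPS22B is at 109.5 and 213 CPM, and the open triangle marks RPS28B at 0 counts. The copies of RPS14 keep nearly the same distance in all libraries.

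RPS26 had the highest mean level per length and a wide range of ratios. Rps26 contacts the messenger RNA upstream of the start codon at the exit channel and joins the subunit late. RPS26A (YGL189C, chrVII:148229-148588) had 873 and 3259 CPM in H4K16Q, 2200 and 681 CPM in H4H18A, and 278 and 857 CPM in WT H4. RPS26B (YER131W, chrV:423952-424311) had 357.5 and 373 CPM in H4K16Q, 254 and 351 CPM in H4H18A, and 9.49 and 291 CPM in WT H4. RPS26B was alike in the 4 libraries of the H4 mutants and in WT H4 replicate 2, and RPS26A was not.

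The share of RPS26A was 70.9% and 89.7% in the H4K16Q libraries, 89.7% and 66.0% in the H4H18A libraries, and 96.7% and 74.6% in the WT H4 libraries, and 91.2% in H3E50A and 79.8% in WT H3. The replicates of each strain were far apart, and the difference of log2 A/B was -0.94 ± 1.27 (SE) in H4K16Q and -1.12 ± 1.29 (SE) in H4H18A against WT H4. H4K16Q replicate 2 and H4H18A replicate 1, which were alike in the order of the 56 genes, had shares of 89.7% each.

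RPS29 also had a wide range. Rps29 is a zinc-binding protein of the head, and the share of RPS29A was 52.6% and 66.7% in the H4K16Q libraries, 61.9% and 73.5% in the H4H18A libraries, and 89.5% and 52.6% in the WT H4 libraries, with 43.8% in H3E50A and 63.6% in WT H3. The share was highest in WT H4 replicate 1, with RPS29B at 2.16 CPM beside a limit of 0.647 CPM for a count of 0. The other libraries lay between 43.8% and 73.5%.

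The pairs with the steadiest ratios were RPS14, RPS24 and RPS4. The copies are identical over 152 bases in RPS24 and over 158 bases in RPS4. How reads that map to both copies were handled is not given, and their part in these ratios was not tested. RPS14A, the main copy of a protein of the platform that is known to repress splicing of RPS14B, had 586 and 1307 CPM in H4K16Q, 795 and 646 CPM in H4H18A, and 120.1 and 563 CPM in WT H4. RPS14B had 118 and 183 CPM in H4K16Q, 127 and 108 CPM in H4H18A, and 24.1 and 85.8 CPM in WT H4. The share of RPS14A was 83.3% and 87.7% in the H4K16Q libraries, 86.2% and 85.7% in the H4H18A libraries, and 83.3% and 86.8% in the WT H4 libraries, and 80.0% in H3E50A and 81.9% in WT H3, although the level of RPS14A varied between 120.1 and 1307 CPM.

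For RPS24, a protein of the body, the share of copy A was 61.6% and 69.2% in the H4K16Q libraries, 66.7% and 59.5% in the H4H18A libraries, and 65.3% and 55.3% in the WT H4 libraries, and 55.4% in H3E50A and 61.9% in WT H3. For RPS4, an RNA-binding protein of the body, it was 54.6% and 44.7% in the H4K16Q libraries, 48.5% and 51.5% in the H4H18A libraries, and 40.6% and 55.8% in the WT H4 libraries, and 44.0% in H3E50A and 51.4% in WT H3, so the copies of RPS4 were close to equal, each being the higher one in 4 of the 8 libraries. RPS4B had the highest log2 fold change of the 56 genes in H4H18A against WT H4, 1.71 ± 1.25 (SE), beside 2.20 ± 1.27 (SE) in H4K16Q.

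Among pairs with a dominant B copy, RPS27 and RPS9 had the largest ratios. Rps27 is a zinc-binding protein, and RPS27A, among the lowest genes per length, had 56.7 and 30.6 CPM in H4K16Q, 23.5 and 17.2 CPM in H4H18A, and 5.39 and 33.2 CPM in WT H4. RPS27B had 338 and 365 CPM in H4K16Q, 155 and 208 CPM in H4H18A, and 36 and 144 CPM in WT H4. The share of RPS27A lay between 7.65% in H4H18A replicate 2 and 27.1% in H3E50A, and every library had fewer counts of copy A than of copy B.

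For RPS9, a protein of the body that acts in the accuracy of decoding, the share of copy A was 14.6% and 11.7% in the H4K16Q libraries, 19.1% and 10.2% in the H4H18A libraries, and 41.3% and 17.1% in the WT H4 libraries. It was 17.4% in H3E50A and 14.95% in WT H3. The value of WT H4 replicate 1 was apart from the other 7 libraries, which lay between 10.2% and 19.1%. The difference of log2 A/B was -1.29 ± 0.67 (SE) in H4K16Q and -1.17 ± 0.70 (SE) in H4H18A against WT H4. RPS9A had 127 and 98.9 CPM in H4K16Q, 96.5 and 39.0 CPM in H4H18A, and 11.2 and 102 CPM in WT H4.

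The pairs RPS23, RPS7 and RPS16 were also among those with the smallest p in the ratio test, and none of them passed it. For RPS23, a protein of the decoding site, the share of copy A was 32.7% and 37.0% in the H4K16Q libraries, 34.0% and 43.2% in the H4H18A libraries, and 50.7% and 46.6% in the WT H4 libraries. Both mutants lay below both WT H4 libraries there, with differences of log2 A/B of -0.82 ± 0.41 (SE) in H4K16Q and -0.60 ± 0.42 (SE) in H4H18A.

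For RPS7, which acts in subunit assembly, the share of copy A was 56.2% and 46.8% in the H4K16Q libraries, 44.7% and 44.0% in the H4H18A libraries, and 12.2% and 46.7% in the WT H4 libraries. WT H4 replicate 1 lay apart, and the remaining 7 libraries lay between 44.0% and 56.2%. For RPS16, whose protein has a tail reaching the initiator tRNA site, the share was 44.9% and 18.1% in the H4K16Q libraries, 21.9% and 44.7% in the H4H18A libraries, and 39.0% and 58.5% in the WT H4 libraries, and the replicates of each of the 3 strains were far apart.

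In H3E50A against WT H3, the ratio differed by at least 2-fold in 12 of the 24 pairs, 7 towards the A copy and 5 towards the B copy, where it did in 32.8% of all 61 pairs. The median absolute difference of log2 A/B over the 24 pairs was 0.88 here. Between replicates it was 0.83 for WT H4, 0.54 for H4K16Q and 0.58 for H4H18A. A difference close to this size thus also occurred between libraries of 1 strain, but only in WT H4, where replicate 1 stood apart. The intervals below cover counting error only. The largest difference between H3E50A and WT H3 was that of RPS22. RPS25 had 77.5% in H3E50A and 92.0% in WT H3 on the A copy and RPS27 27.1% in H3E50A and 9.90% in WT H3. RPS10, whose protein lies at the head near the messenger RNA entry, had 47.0% in H3E50A (exact 95% interval 41.2 to 53.0%) and 72.8% in WT H3 (69.4 to 76.0%). Among the 12 pairs, the B copy was the higher one in H3E50A and the A copy in WT H3 for RPS10, RPS22 and RPS29, and the reverse held for RPS0 and RPS1.

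RPS10A and RPS1B had the next lowest log2 ratios in H3E50A after RPS22A. RPS10A had 31.0 CPM in H3E50A and 348 CPM in WT H3, log2 ratio -3.47, and 408.5 and 222.5 CPM in H4K16Q, 160.0 and 312 CPM in H4H18A, and 26.7 and 380.2 CPM in WT H4. RPS1B, one copy of a large protein of the platform, had 119 CPM in H3E50A and 1026 CPM in WT H3, log2 ratio -3.10, and 1117 and 991 CPM in H4K16Q, 617 and 798 CPM in H4H18A, and 19.0 and 1213 CPM in WT H4. RPS1B in WT H4 replicate 2 was higher than in any mutant library, while in WT H4 replicate 1 it was lower than in any.

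RPS30B and RPS21A stood out at the other end. RPS30B, a small basic protein of the body, had 67.4 CPM in H3E50A and 67.7 CPM in WT H3, log2 ratio -0.01, and 225 and 173 CPM in H4K16Q, 113 and 56.2 CPM in H4H18A, and 39.9 and 55.9 CPM in WT H4. Both H4K16Q libraries stood above all 3 WT libraries, and the log2 fold change was 2.05 ± 0.65 (SE), with the smallest unadjusted p of the 56 genes (0.0113) and an adjusted p of 0.997 in edgeR with Benjamini-Hochberg adjustment. RPS21A, a protein involved in maturation of the subunit RNA, had 48.4 CPM in H3E50A and 57.3 CPM in WT H3, log2 ratio -0.24, and 152 and 200 CPM in H4K16Q, 132 and 39.0 CPM in H4H18A, and 17.2 and 69.5 CPM in WT H4. In RPS21A both H4K16Q libraries were again the higher ones, at a log2 fold change of 2.03 ± 0.85 (SE).

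The genes at the low end in the H4 mutants were RPS16A, RPS10A and RPS29B beside the RPS25 copies. RPS16A had 386 and 175.5 CPM in H4K16Q, 122 and 227 CPM in H4H18A, and 20.3 and 357.5 CPM in WT H4. RPS29B had 139.6 and 66.5 CPM in H4K16Q, 37.7 and 61.9 CPM in H4H18A, and 2.16 and 108.5 CPM in WT H4. In both, WT H4 replicate 2 lay within the range of the mutant libraries and WT H4 replicate 1 far below. The log2 fold changes in H4K16Q and H4H18A were 0.57 and -0.10 for RPS16A, 0.63 and 0.22 for RPS10A, and 0.91 and -0.11 for RPS29B.

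Genes grouped by copy, intron or upstream letters had overlapping fold changes. Of the 56 genes, 36 have an annotated intron, where 4.82% of all coding genes do. The median log2 fold change was 1.55 with an intron and 1.71 without in H4K16Q, 0.89 and 1.04 in H4H18A, and -2.05 and -1.97 in H3E50A. A and B copies had medians of 1.32 and 1.55 in H4K16Q, 0.83 and 0.83 in H4H18A and -2.21 and -1.90 in H3E50A. These are descriptions of the genes, with no test, and the ranges overlapped.

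Rap1 is a general regulator that binds upstream of most ribosomal protein genes. The core of its motif (the form of the letters in capitals below, with any base at the 2 places between CACCC and ACA), searched on both strands in the 500 bases upstream of the start codon, was found in 11 of the 56 genes (19.6%), beside 2.06% of the other 5861 coding genes. The Abf1 motif was found in 42.9%, beside 46.1%, and those of Tbf1 (TTAGGG or ACCCTAA) in 3.57%, beside 12.6%. A run of TTTTTT was found in 92.9%, beside 85% of the other genes, and matches of these motifs can overlap one another. Both copies held the Rap1 letters in RPS16 and RPS10 only, and these matches are shown because the copies of these pairs can be set side by side. They are RefSeq sequence of build R64 on the strand of the letters, with the letters in capitals and 10 bases on either side.
RPS16A, chrXIII:551610-551639, plus strand: tacatattggCACCCATACAttataaaatc
RPS16A, chrXIII:551520-551549, minus strand: gtacattacgCACCCATACAtttatagttt
RPS16B, chrIV:308133-308162, minus strand: tcagaaaaaaCACCCATACAtgttgaaaaa
RPS10A, chrXV:866748-866777, minus strand: accggtgtaaCACCCATACAaacccagaat
RPS10B, chrXIII:732214-732243, minus strand: agggcatataCACCCACACAtgcgcgatgt

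The median log2 fold change of the 11 genes with these letters was 1.38 in H4K16Q, 0.85 in H4H18A and -2.10 in H3E50A, beside 1.56, 0.98 and -2.0 for the 45 without. A match is a run of letters and not a shown site of binding.

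Other genes of the ribosome gave similar medians. The 81 large-subunit protein genes had median log2 fold changes of 1.67 in H4K16Q (75 positive, 6 negative), 0.95 in H4H18A (74 and 7) and -1.91 in H3E50A, with none past the threshold in the H4 comparisons (edgeR, Benjamini-Hochberg). The ratio of summed small-subunit to summed large-subunit CPM was 0.776 and 0.679 for H4K16Q, 0.720 and 0.782 for H4H18A and 0.576 and 0.842 for WT H4, and 0.730 for H3E50A beside 0.757 for WT H3. It was lowest in WT H4 replicate 1. ASC1, a scaffold protein bound to the head of the small subunit, had 1245 and 5278 CPM in H4K16Q, 3459 and 1102 CPM in H4H18A, and 304 and 1094 CPM in WT H4, and 354 CPM in H3E50A and 1702 CPM in WT H3.

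**Figure D5:**
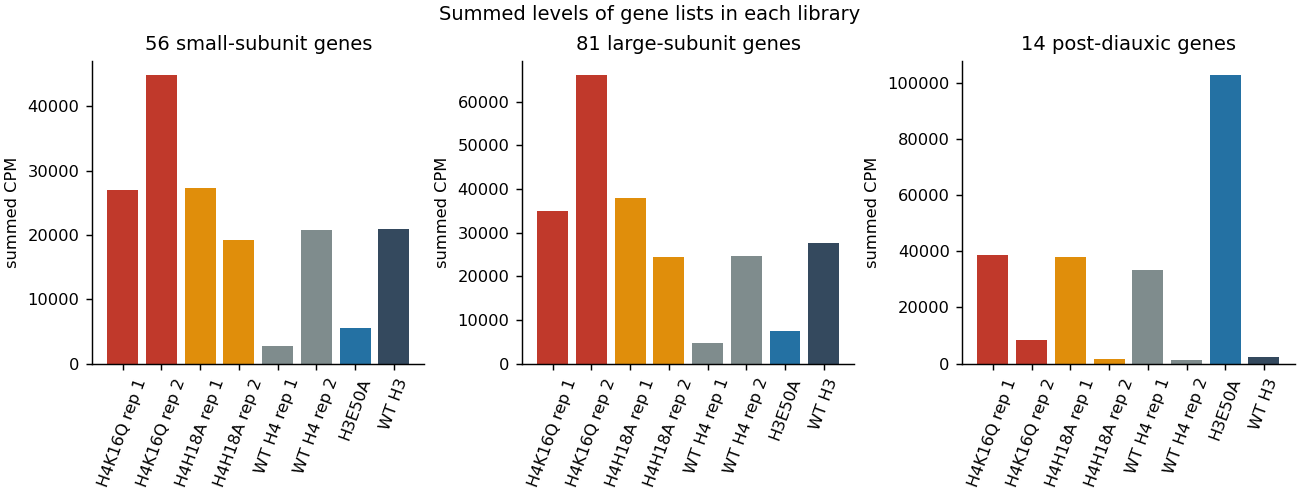
Summed CPM of the 56 small-subunit genes, the 81 large-subunit genes and the 14 post-diauxic genes in each library, as bars from 0. WT H4 replicate 1 and H3E50A are lowest for both ribosomal lists, and H3E50A is highest, at 102500 CPM, for the post-diauxic list, in which H4K16Q replicate 1, H4H18A replicate 1 and WT H4 replicate 1 are also high, at 38560, 38090 and 33410 CPM.

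Factors of 40S assembly and regulators of these genes had medians closer to 0. The 25 assembly genes, ASC1 among them, had medians of 0.22 in H4K16Q and 0.37 in H4H18A, and -1.21 in H3E50A. In H3E50A 15 of them were 2-fold lower and 0 higher, where 23.2% and 22.1% of all genes were. The 20 regulators had medians of -0.03, 0.13 and 0.17. In H3E50A 5 of these 20 were 2-fold higher and 2 lower, beside the same shares of all genes. No gene of either list passed the threshold in the H4 comparisons (edgeR, Benjamini-Hochberg).

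RAP1 had 104 and 130.3 CPM in H4K16Q, 108 and 147 CPM in H4H18A, and 56.5 and 109 CPM in WT H4, and 89.0 CPM in H3E50A and 118.5 CPM in WT H3. FHL1, which holds the coactivator Ifh1 at these genes, had 70.6 and 74.1 CPM in H4K16Q, 56.5 and 119 CPM in H4H18A, and 66.2 and 113 CPM in WT H4, and 69.7 CPM in H3E50A and 114 CPM in WT H3. IFH1 had 120.5 and 114 CPM in H4K16Q, 103.5 and 253.5 CPM in H4H18A, and 106 and 216 CPM in WT H4, and 88.0 CPM in H3E50A and 183 CPM in WT H3. IFH1 was lower in both H4K16Q libraries than in WT H4 replicate 2 and close to WT H4 replicate 1, and lower in H3E50A than in WT H3.

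SFP1, a regulator that answers to nutrients, had 125 and 102 CPM in H4K16Q, 132 and 120.4 CPM in H4H18A, and 72.9 and 142 CPM in WT H4, and 126 CPM in H3E50A and 129 CPM in WT H3. HMO1, a high-mobility group protein bound at many of these genes, had 210.0 and 240.2 CPM in H4K16Q, 212 and 119 CPM in H4H18A, and 225.5 and 105 CPM in WT H4, and 228 CPM in H3E50A and 82.0 CPM in WT H3. HMO1 was higher in WT H4 replicate 1 and H3E50A, the libraries with the lowest small-subunit levels, than in WT H4 replicate 2 and WT H3. It was about as high in both H4K16Q libraries and H4H18A replicate 1, the libraries with the highest summed small-subunit levels.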

How the data were processed

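Reads of 8 libraries (TruSeq stranded total RNA, HiSeq) were trimmed by the authors with Trim Galore, mapped to R64 with STAR and counted with featureCounts. Versions, the strand setting and the handling of reads with several matches are not given in the sources used here. The deposited counts of 6600 features are unscaled whole numbers. The authors' deposited edgeR tables hold log2 fold changes and p-values and were not used. The members and gene lists were chosen with earlier results of these data known.

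Counts were analysed in R 4.3.3 with edgeR 4.0.16 (filterByExpr, minimum count 10 and total 15, TMM). The 6 H4 libraries were fitted together with 1 mean per strain and no covariate, which left 5669 genes, all 56 small-subunit genes included. Positions, sequences and names come from RefSeq R64, in which 5917 features matched a locus tag. H3E50A was set against WT H3 by log2 ratio of CPM with prior count 2, over 5962 genes. The copy ratio was tested on counts stacked by copy, with the library as a block. The tests were also run on simulated data. No simulated library stood apart as WT H4 replicate 1 does, so that check does not cover the setting of these data. Alternatives used limma 3.58.1 and DESeq2 1.42.0, RLE and total-count scaling, no filter, other sets of libraries, removal of ribosomal RNA features and a replicate block. Replicates were not the same library, as their counts differed by more than sampling noise. Named genes are the 8 single-copy genes, the 3 highest and 3 lowest by fold change and by level per kb, the pairs with the largest and smallest ratios, ranges and p-values, and 6 genes of the lists (ASC1, RAP1, FHL1, IFH1, SFP1 and HMO1). Some genes that this rule names are not reported here. Intervals and limits cover counting error only.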

Additional observations from a re-analysis of the deposited data

Results flagged for a closer look

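In 54 of the 56 small-subunit genes, both H4K16Q libraries lay above the mean of the WT H4 libraries while H3E50A lay below WT H3, a pattern found in 14.6% of all 5669 genes. For H4H18A the count was 45 of the 56 genes, beside 15% of all genes. The opposite directions were not tested, since H3E50A and WT H3 have 1 library each, and the WT H4 mean includes WT H4 replicate 1, the lowest library for 52 of the 56 genes.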

How the results depend on the processing

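Of 1081 alternative values, 990 were labelled unchanged and 57 reversed, most of the reversed ones where a library was left out. The label was wide. A median could move by up to 1.27 on the log2 scale, the SD of list medians between replicates. The H3E50A median of -0.89 against all 3 WT libraries, beside -2.0, was therefore labelled unchanged. Counts had to stay within a set fold of the main count. Genes and pairs in the H4 comparisons had to keep their sign and their side of the threshold. None of the 56 genes passed in the main fit, so the number of unchanged values says little. DESeq2 called 15 genes in H4K16Q against WT H4 and 6 in H4K16Q against H4H18A, none of them among the 56. With each library left out in turn, H4K16Q against WT H4 gave 0 to 58 genes, 0 to 7 of the 56, a median log2 fold change of 0.77 to 4.03, and 0 to 12 pairs with a changed copy ratio, 0 to 5 of them small-subunit pairs. H4H18A gave 0 to 13 genes, 0 to 1 of the 56, a median of 0.14 to 3.15, 33 to 56 positive genes, and 0 to 9 pairs, 0 to 4 of them small-subunit pairs. All the high counts in these comparisons with WT H4 came without WT H4 replicate 2. Log2 fold changes then ran, in H4K16Q, over -0.60 to 4.26 for RPS25A, -0.36 to 3.92 for RPS16A, -0.28 to 3.69 for RPS10A, -0.0832 to 5.70 for RPS29B and -0.21 to 5.94 for RPS1B. In H4H18A they ran over -1.02 to 3.13 for RPS16A, -1.10 to 4.55 for RPS29B, -0.14 to 2.32 for RPS21A, -0.71 to 1.91 for RPS27A, -0.60 to 2.60 for RPS9A, -0.67 to 3.16 for RPS10A, -0.12 to 1.03 for RPS20, -0.76 to 3.95 for RPS25A, -0.0973 to 0.31 for RPS22B, -0.76 to 5.24 for RPS1B and -1.46 to 2.02 for RPS25B. Differences of log2 A/B ran in H4K16Q over -0.35 to 0.53 for RPS4, -0.20 to 0.33 for RPS14, -2.66 to 0.65 for RPS26, -0.32 to 2.51 for RPS22 and -2.50 to 0.43 for RPS29, and in H4H18A over -1.93 to 1.01 for RPS29, -0.13 to 0.47 for RPS24, -5.44 to 0.0191 for RPS28, -2.85 to 0.46 for RPS26, -0.34 to 0.55 for RPS4, -0.10 to 0.30 for RPS14 and -0.14 to 2.52 for RPS7. With total counts only, H4H18A gave -0.23 for RPS20, -0.38 for RPS25A, -0.27 for RPS10A, -0.42 for RPS22B, -0.35 for RPS1B, -0.49 for RPS27A and -0.43 for RPS9A, and H3E50A gave 0.0523 for RPS30B. With all 3 WT libraries as the control, H4H18A gave -0.0373 for RPS25A, -0.0826 for RPS10A, -0.0447 for RPS22B and -0.081 for RPS1B, and H3E50A gave 25 genes 2-fold lower and 0.19 for RPS3, 0.74 for RPS28B, 0.33 for RPS25B, 0.33 for RPS29B, 0.34 for RPS30B and 0.23 for RPS21A. With the replicate number as a block, the medians were 1.96 in H4K16Q, 1.28 in H4H18A and 0.66 between the mutants, with 0 genes and 0 pairs called. RPS16A (0.33) and RPS29B (0.44) turned positive in H4H18A. The deviations of same-numbered libraries from their strain means had correlations of -0.01, 0.13 and 0.44 over all genes tested. The post-diauxic list, however, summed higher in replicate 1 than in replicate 2 of each H4 strain. The labels give only a number, and whether it marks a batch was not tested. In H4K16Q against H4H18A, the test result for the copy ratio of RPS25 also changed when either WT H4 library was left out. Where a library is left out, its strain holds 1 library, which is assumed to vary like the rest. The cause of these changes was not tested. Depth limits RPS28B and RPS25B most, with as few as 0 and 7 counts in a library.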

Other observations

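The copy ratios of RPS16 and RPS30 also separated libraries. The share of RPS16A was 18.1% in H4K16Q replicate 2 and 21.9% in H4H18A replicate 1, and between 38.5% and 58.5% in the other 6 libraries, whereas RPS16B, the second gene for the same protein, had 795 and 438 CPM in these libraries, beside 254 CPM in WT H4 replicate 2. The share of RPS30A was 60.7% and 53.9% in the H4K16Q libraries, 52.5% and 79.7% in the H4H18A libraries, and 59.9% and 81.4% in the WT H4 libraries, with 66.2% in H3E50A and 73.3% in WT H3, so the replicates of H4H18A and of WT H4 were far apart. Rps30 is identical in both copies. These values were singled out after they were seen, and their cause was not tested.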
